A study of Homo sapiens with 4 samples.

Results

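Dense clusters of open chromatin away from gene starts were described in SK-N-BE(2)C, a human neuroblastoma cell line with amplified MYCN. The clusters were chosen by the positions of control ATAC-seq peaks alone. Control peaks more than 3 kb from the transcription start site (TSS) of every GENCODE gene were joined when the gap between them was at most 12500 bp, and stretches with 4 or more peaks were retained. The stretch of chromosome 2 from 15.9 to 16.45 Mb, around the amplified MYCN gene, was left out, where 4 further stretches held 130 peaks. The rule gave 614 clusters with 3014 peaks, which are 9.80% of the 30759 distal control peaks and 6.33% of all 47610 control peaks. The TSS of a gene was the start of its gene record, so that peaks near the start of another transcript were not excluded. With the TSS of every transcript the rule gave 425 clusters with 2043 peaks.

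ATAC-seq reads accessible chromatin through cuts made by the Tn5 transposase. The control cells received a non-targeting control gRNA and are labelled wildtype. The sgSNHG1 cells received gRNAs against SNHG1, the host gene of several small nucleolar RNAs, whose spliced transcript is non-coding, and are labelled as SNHG1 knockout. According to the authors, SNHG1 expression was repressed in such cells, but the knockout was not complete. Cas9 and a pair of guides had been transfected, puromycin was used for selection, and single cells were sorted and expanded, so that a group stands for clonal cells of 1 aneuploid line. The 2 replicates of a group had been merged by the authors ahead of peak calling. Every value therefore comes from 1 pooled list per group, without replicate spread and without a test between the groups, and a pooled list cannot separate fewer cells with an open site from less opening per cell. The sgSNHG1 list held 42682 peaks, of which 26636 were distal. The median summit pileup, the number of fragments that cover the highest point of a peak, was 24 over all control peaks and 20 over all sgSNHG1 peaks. The smallest peak width, which the peak caller sets from the fragments, was 119 bp for the control list and 92 bp for the sgSNHG1 list.

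Distal accessible sites are mostly enhancers, insulators or silencers, which transcription factors open and hold free of nucleosomes. Genes that define a cell type are often flanked by several enhancers in close succession, and such groups with strong H3K27 acetylation have been called super-enhancers, for which the same joining distance is in common use. In neuroblastoma, factors of the sympathetic lineage bind one another's enhancers and hold the cells in an adrenergic (ADRN) state, while other cells show a mesenchymal (MES) state. No histone mark was used here, so that a cluster means only closely spaced accessible sites.

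The sequences at the strongest sites of some clusters are given as examples. Most are named for genes of neural or catecholamine function, while TWIST1 is a gene of the MES state and CDC42EP3 stands for the clusters with the most peaks. Each line gives the gene whose protein-coding TSS is nearest to the cluster, the GRCh38 position and the 101 bases around the control summit with the highest fold enrichment of that cluster, on the plus strand. Capitals mark matches, on either strand, to GATA sites (AGATAA and AGATAG, or TGATAA and TGATAG), to the E-boxes CATCTG and CAGCTG, or to AP-1 sites (TGACTCA or TGAGTCA). The first 7 stand for the receptor, transcription factor and neurite genes described later, and the last 4 were chosen because they hold such matches.
RET (chr10:42962392-42962492): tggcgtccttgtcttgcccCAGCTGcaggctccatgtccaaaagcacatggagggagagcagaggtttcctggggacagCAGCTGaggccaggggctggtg
HAND1 (chr5:154505681-154505781): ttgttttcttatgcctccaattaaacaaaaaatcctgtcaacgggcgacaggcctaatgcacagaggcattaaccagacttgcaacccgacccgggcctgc
ISL1 (chr5:51998077-51998177): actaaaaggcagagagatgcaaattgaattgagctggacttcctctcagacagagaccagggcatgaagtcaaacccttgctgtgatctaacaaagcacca
SOX11 (chr2:5520674-5520774): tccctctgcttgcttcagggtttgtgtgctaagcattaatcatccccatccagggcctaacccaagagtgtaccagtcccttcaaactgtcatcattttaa
PHOX2A (chr11:72321507-72321607): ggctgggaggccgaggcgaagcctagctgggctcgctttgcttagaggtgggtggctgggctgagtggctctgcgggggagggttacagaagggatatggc
LMO1 (chr11:8242797-8242897): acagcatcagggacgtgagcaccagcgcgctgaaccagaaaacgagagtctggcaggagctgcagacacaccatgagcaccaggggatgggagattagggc
GAP43 (chr3:115397017-115397117): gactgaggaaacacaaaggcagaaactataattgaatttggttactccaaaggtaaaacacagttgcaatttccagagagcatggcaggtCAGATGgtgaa
GCH1 (chr14:54818830-54818930): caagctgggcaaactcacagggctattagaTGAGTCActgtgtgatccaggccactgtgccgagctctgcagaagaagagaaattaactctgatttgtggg
MYT1L (chr2:2112575-2112675): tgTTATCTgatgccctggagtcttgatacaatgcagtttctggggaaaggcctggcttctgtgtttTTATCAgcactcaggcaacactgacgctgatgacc
TWIST1 (chr7:18846825-18846925): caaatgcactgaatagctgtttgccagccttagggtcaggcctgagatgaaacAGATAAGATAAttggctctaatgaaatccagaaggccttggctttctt
CDC42EP3 (chr2:37641757-37641857): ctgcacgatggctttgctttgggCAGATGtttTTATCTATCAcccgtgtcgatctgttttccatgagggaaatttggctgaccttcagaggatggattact

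Of these 11 windows, the RET site held a pair of CAGCTG E-boxes, the GAP43 site a CATCTG E-box and the GCH1 site an AP-1 match. The MYT1L and TWIST1 sites each held a pair of GATA matches, which overlap one another in the TWIST1 site. The CDC42EP3 site held a CATCTG E-box and a pair of overlapping GATA matches. The HAND1, ISL1, SOX11, PHOX2A and LMO1 windows held none of these letters, which says nothing of the factors that bind there. All 11 sites had an overlapping peak in the sgSNHG1 list, but they were picked as examples. The strongest peak was kept in 88.8% of all 614 clusters, and some strongest sites that were lost, that of NCAM1 among them, are shown further on. Fold enrichment, the ratio of summit pileup to local background within a list, at the RET site was 9.10 in control and 10.1 in sgSNHG1. It was 11.2 and 11.6 at the HAND1 site, and 8.77 and 6.55 at the SOX11 site.

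Most distal peaks stood alone. Joining produced 22375 stretches outside the part left out, of which 16979 were single peaks, 3714 held 2 peaks and 1068 held 3. Among the clusters, 362 held 4 peaks, 133 held 5, 53 held 6, 27 held 7 and 39 held 8 or more. The span of a cluster had a median of 20602 bp (quartiles 15269 and 27129 bp) and ranged from 2689 to 81947 bp. Together the clusters spanned 14.0 Mb, of which their peaks covered 1.04 Mb, and the median gap between neighbouring peaks was 5313 bp. At the threshold of 4 peaks, the 1448 peaks just inside had a median fold enrichment of 4.89 and the 3204 peaks of stretches just outside, with 3 peaks, had 5.04.

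**Figure D1:**
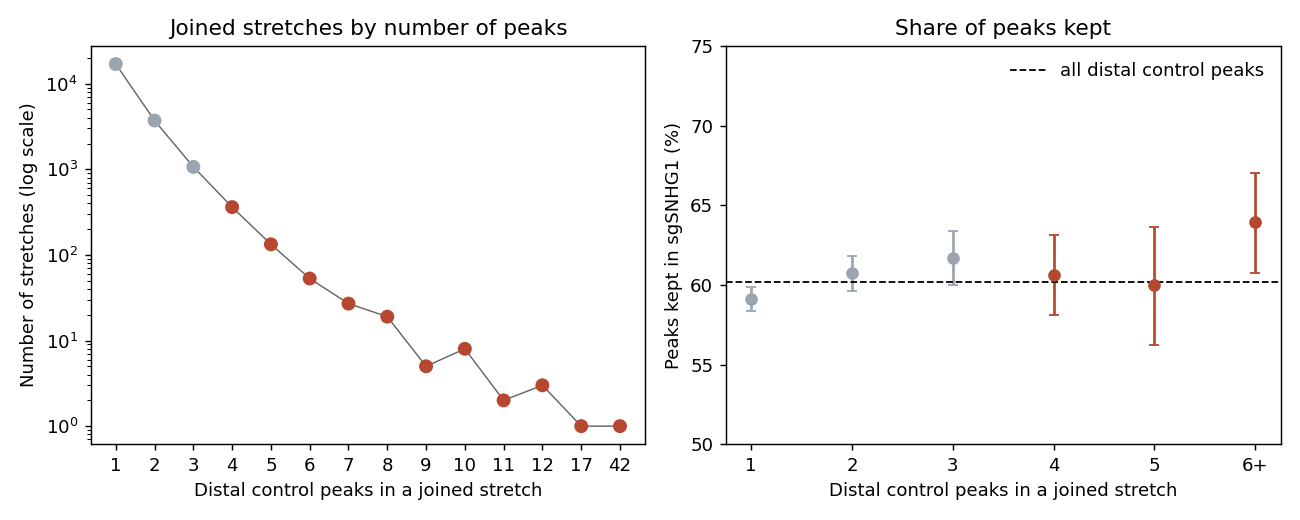
The left panel plots the number of joined stretches (log scale) against the number of distal control peaks they hold, with clusters in red and shorter stretches in grey. The right panel plots the percentage of their peaks that overlap an sgSNHG1 peak, with 95% Wilson intervals, stretches of 6 or more pooled, and all distal control peaks as the dashed line. Numbers fell from 16979 single peaks to 1 stretch of 42 peaks, while the share kept lay between 59.1% and 63.9% in these 6 classes. Taken singly, sizes from 7 peaks upwards, with 1 to 27 stretches each, ranged from 58.3% to 86.4%.

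Peaks of the clusters were tall on a raised background rather than more enriched. The median pileup was 27 fragments in the clusters (quartiles 19 and 39) and 21 in the 27611 other distal control peaks (quartiles 16 and 30). The local background of a peak, expressed relative to the genome-wide background, had a median of 2.05 in the clusters and 1.38 in the other distal peaks. The median fold enrichment was accordingly 4.90 (quartiles 3.92 and 6.39) in the clusters and 5.28 (quartiles 4.25 and 6.86) in the other distal peaks, and the median -log10 q was 9.46 against 8.56. Background rose with the number of peaks in a stretch, from 1.27 for single peaks through 1.94 for stretches of 4 to 2.40 for stretches of 6 or more. The neighbouring peaks of a cluster can themselves add fragments to the local background, but the cause of the raised background was not tested. These are values of the list that chose the clusters and are given as a description.

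**Figure D2:**
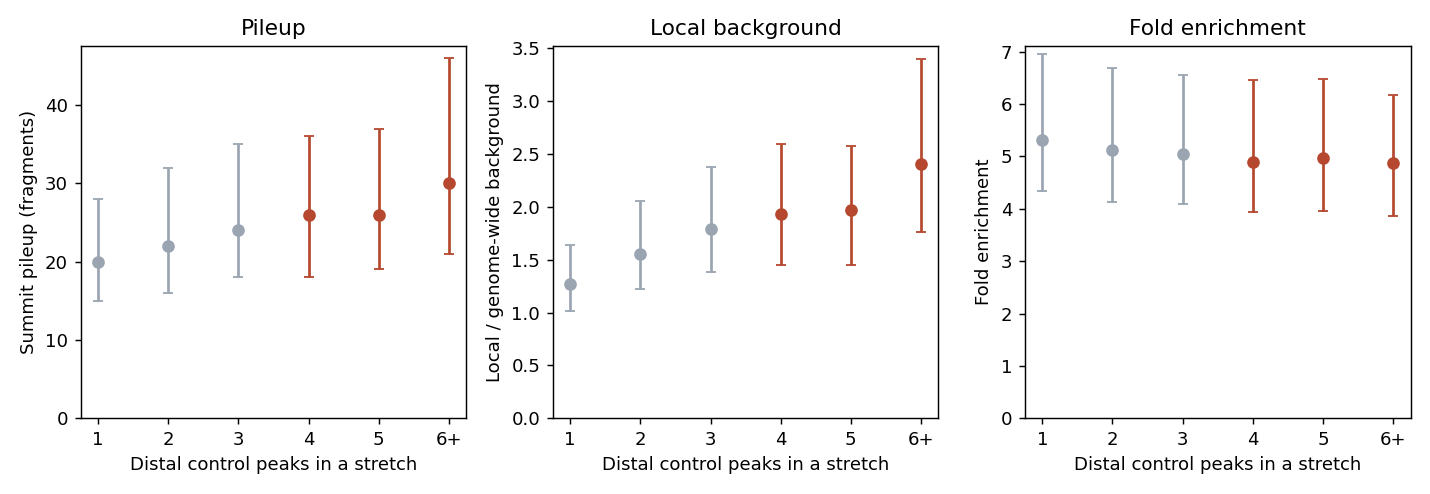
The panels plot the median with quartile bars of the summit pileup in fragments, of the local over the genome-wide background, and of the fold enrichment, against the number of distal control peaks in a stretch. From single peaks to stretches of 6 or more, the median pileup went from 20 to 30 and the background from 1.27 to 2.40, while fold enrichment went from 5.31 to 4.87.

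The clusters lay mainly inside genes. Of the 3014 peaks, 65.8% lay in introns, 10.4% overlapped an exon and 23.8% were intergenic, against 54.9%, 13.2% and 31.9% of the other distal peaks. Of the 614 clusters, 376 lay wholly within a protein-coding gene, 43 lay partly within one, 72 overlapped other gene types only, 103 overlapped no gene and 20 spanned a protein-coding TSS. The median distance from a cluster to the nearest protein-coding TSS was 55446 bp (quartiles 15811 and 149605 bp). For 401 clusters that TSS was within 100 kb, and for 29 it was more than 500 kb away. In all, 539 protein-coding genes were the nearest of some cluster, and 66 of them were nearest to more than 1.

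Of the motifs searched, that of CTCF differed most in frequency between the cluster peaks and the other distal peaks. The core motif of CTCF, the zinc finger protein that anchors chromatin loops and insulators, was found within 100 bp of the summit on either strand in 51 peaks of the clusters, or 1.69% (95% Wilson interval 1.29 to 2.22). It was found in 4.55% of the other distal peaks (4.31 to 4.80), a difference of -2.86 percentage points (Newcombe interval -3.34 to -2.28), and in 4.25% of all distal peaks. GATA sites were found in 31.1% of the peaks against 33.4% of the other distal peaks, a difference of -2.38 points (-4.10 to -0.613), with 33.2% over all distal peaks. The CAGCTG E-box was found in 22.6% against 21.1% (difference 1.47, -0.0635 to 3.07), and the CATCTG E-box in 29.6% against 29.3% (difference 0.332, -1.36 to 2.07). AP-1 sites were found in 5.87% against 5.93% (difference -0.0562, -0.891 to 0.881), and the TEAD site ACATTCC in 2.19% against 2.47% (difference -0.284, -0.786 to 0.329). The last 4 motifs were present in 21.2%, 29.3%, 5.92% and 2.44% of all distal peaks. For these 4 the interval of the difference included 0. Without the 12 repeat-rich clusters described next, whose 123 peaks held no CAGCTG, that E-box was found in 23.5% of the peaks, and the difference of 2.43 points (0.846 to 4.08) excluded 0. For the other 5 motifs it did not change whether the interval included 0, with -1.89 (-3.65 to -0.0815) for GATA sites. The AP-1 difference changed sign, to 0.194 (-0.672 to 1.17). Wilson and Newcombe intervals cover counting error only, and peaks of a cluster are not independent of one another. GC content had a median of 52.7% within 100 bp of the summit in the clusters and 50.2% in the other distal peaks.

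A group of 12 clusters with 123 peaks was made of satellite-like repeat sequence. In these clusters the pentamer GGAAT, counted on both strands, had a median density of between 4.12 and 13.4 per 100 bp of peak, and the next cluster in order had 0.889. The limit of 2 per 100 bp that set them apart was drawn after the densities were seen. They lay next to centromeres on chromosomes 1, 2, 4, 5, 10, 16, 17 and 20. The largest held 42 peaks over 81947 bp at chromosome 1, 143184656 to 143266602, at a distance of 639375 bp from the nearest protein-coding TSS, that of the histone gene H3-7. The nearest coding genes here only name a position. The strongest sites of 3 of these clusters show the repeats, with GGAAT or its complement ATTCC in capitals.
H3-7 (chr1:143185111-143185211): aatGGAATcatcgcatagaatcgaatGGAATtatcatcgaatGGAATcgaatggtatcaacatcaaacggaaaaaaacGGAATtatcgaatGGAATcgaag
CWH43 (chr4:49149709-49149809): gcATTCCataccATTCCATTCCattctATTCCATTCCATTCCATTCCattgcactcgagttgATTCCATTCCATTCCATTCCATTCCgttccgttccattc
RPIA (chr2:90390518-90390618): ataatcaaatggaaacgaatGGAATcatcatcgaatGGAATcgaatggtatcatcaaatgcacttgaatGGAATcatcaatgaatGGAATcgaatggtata

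Repeat-rich clusters stood apart in height. Their median pileup was 68 fragments and their median local background 5.81 times the genome-wide value, against 26 and 2.02 for the peaks of the other 602 clusters, and their GC content had a median of 38.3%. In the H3-7 cluster the control fold enrichment ranged from 2.60 to 36.7 with a median of 5.18, and 32 of the 42 peaks were kept in sgSNHG1. The strongest site there had 36.7 in control and 37.7 in sgSNHG1. Over all 12 clusters 94 of 123 peaks were kept, or 76.4% (95% Wilson interval 68.2 to 83.1). Repeats of this kind exist in many near-identical copies, and reads that map to several places had been removed, so that the placement of these peaks is uncertain. Leaving the 12 clusters out changed the share kept from 61.5% to 60.8%.

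Whether the clusters persisted in sgSNHG1 cells was described by the peaks that overlapped an sgSNHG1 peak by at least 1 bp, which are called kept. Of the 3014 peaks 1853 were kept, or 61.5% (95% Wilson interval 59.7 to 63.2). Over all distal control peaks this share was 60.2%, and among the other distal peaks it was 59.8%. The difference between the clusters and the other distal peaks was 1.63 percentage points (Newcombe interval -0.209 to 3.45), so that no difference was detectable at this depth. Among the kept peaks, 61 were split into 2 or more sgSNHG1 peaks. How many control peaks a second control library would keep is unknown, since values per replicate were not used.

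The share kept followed the strength of the control peak far more than membership in a cluster. With a -log10 q from 2 to 5, 22.4% of the 594 cluster peaks and 22.3% of the other distal peaks were kept. From 5 to 10 these shares were 47.6% and 51.4%, a difference of -3.78 points (-7.02 to -0.516). From 10 to 20 they were 80.4% and 81.3%, and from 20 to 40 they were 96.7% and 96.8%. At 40 or more, 158 of 162 cluster peaks were kept, or 97.5%, against 99.5% of the others (difference -1.99, -5.71 to -0.353). In the band from 5 to 10 and in that of 40 or more the interval of the difference excluded 0, with the clusters lower, and in the other 3 bands it included 0. The cluster peaks lost in the highest band were few. Among them was a peak of a repeat-rich cluster near RPIA, with a control -log10 q of 80.0. The bands are not given without the repeat-rich clusters, whose peaks are of uncertain placement. The other distal peaks, weighted to the same strengths as the cluster peaks, would have 63.1% kept.

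**Figure D3:**
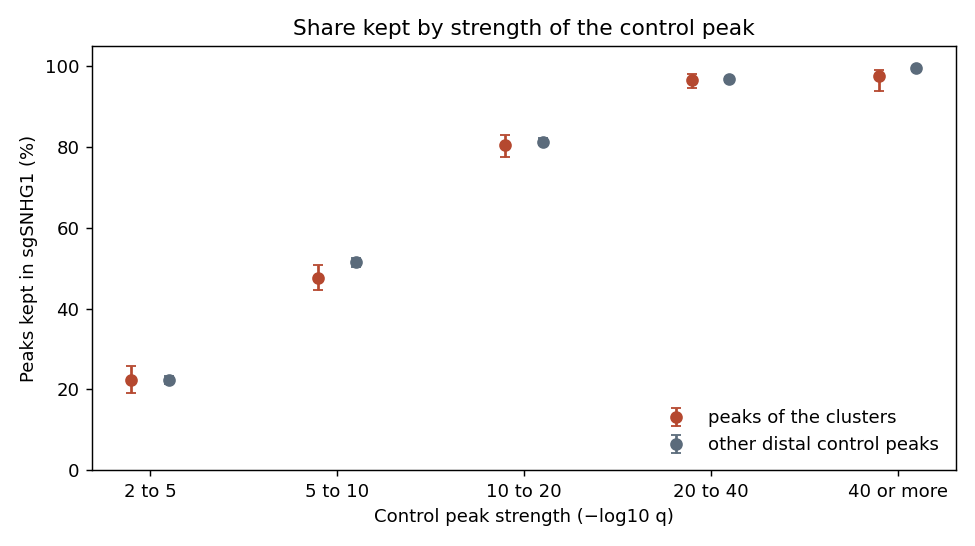
The percentage of control peaks that overlap an sgSNHG1 peak is plotted against the -log10 q of the control peak for cluster peaks in red and other distal control peaks in grey, with 95% Wilson intervals. They rose from 22.4% and 22.3% to 97.5% and 99.5%, and the largest gap between them was 3.78 percentage points at 5 to 10.

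Within a cluster, the same order held. The strongest peak of a cluster by fold enrichment was kept in 88.8% of the 614 clusters (86.0 to 91.0), the second in 75.1%, the third in 59.3% and the weakest in 30.5% (26.9 to 34.2). The median -log10 q was 22.9 for the strongest and 4.38 for the weakest peaks. Position within the cluster went with no such order. The outermost peaks of the clusters were kept in 62.6% of cases (59.9 to 65.3) and the inner peaks in 60.7% (58.4 to 62.9).

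Most clusters kept some of their peaks and lost others. All peaks were kept in 67 clusters (10.9%) and none in 18 (2.93%), and 483 clusters kept at least 50% of their peaks. Of all distal control peaks 60.2% were kept, so that any stretch of 4 or more peaks would seldom lose all of them. The low number of clusters without a kept peak is therefore not read as a trait of the clusters. The span of 232 clusters, or 37.8% (34.0 to 41.7), overlapped a stretch that met the same rule in the sgSNHG1 list. This share was 27.1% for clusters of 4 peaks, 45.1% for those of 5, 50.9% for those of 6, 63.0% for those of 7 and 76.9% for those of 8 or more. A cluster of 4 control peaks needs to lose only 1 peak to miss the rule, so that these shares depend on the size of the cluster.

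The spans held 2048 distal sgSNHG1 peaks, of which 140 overlapped no control peak. Per control peak this is 0.679, against 0.866 over all distal peaks, and 486 clusters held fewer sgSNHG1 than control peaks, 103 as many and 25 more. Since the spans were selected on the control list, a lower number in the other list had to follow. The reverse comparison shows its size. The same rule applied to the sgSNHG1 list gave 410 clusters with 1958 peaks, and their spans held 0.803 control peaks per sgSNHG1 peak, against 1.15 over all distal peaks. Each list was therefore short of peaks in the clusters that the other list had chosen. Of these 410 clusters 233 overlapped a control cluster, and 78.0% of their peaks were kept in control against 71.6% of all distal sgSNHG1 peaks.

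At sites present in both lists, accessibility differed little. Mutual best overlaps paired 1843 cluster peaks. The log2 ratio of sgSNHG1 over control fold enrichment had a median of -0.03, with quartiles of -0.25 and 0.18, and it was -0.03 for the 16484 pairs of other distal peaks. A single pair had a median counting error of 0.39. Fold enrichment was lower by at least 0.5 in 148 pairs, or 8.03%, against 9.49% of all distal pairs, and higher by at least 0.5 in 101 pairs, or 5.48%, against 7.3% of all distal pairs. In the log2 ratio of pileups, each scaled to its genome-wide background, the median was -0.04 for the clusters and 0.04 for the other distal pairs. A difference of more than 2 counting errors in fold enrichment was seen in 39 pairs downwards, or 2.12%, against 1.54% of all distal pairs, and in 38 upwards, or 2.06%, against 1.46% of all distal pairs. The repeat-rich clusters, which gave 94 of the pairs, held 8 of the 39 and 24 of the 38. Outside them 31 of 1749 pairs were lower and 14 higher by that measure. Width moved more than height. Peaks were narrower in sgSNHG1 in 78.2% of the cluster pairs and in 77.4% of the other distal pairs, beside the shorter smallest peak width of that list.

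**Figure D4:**
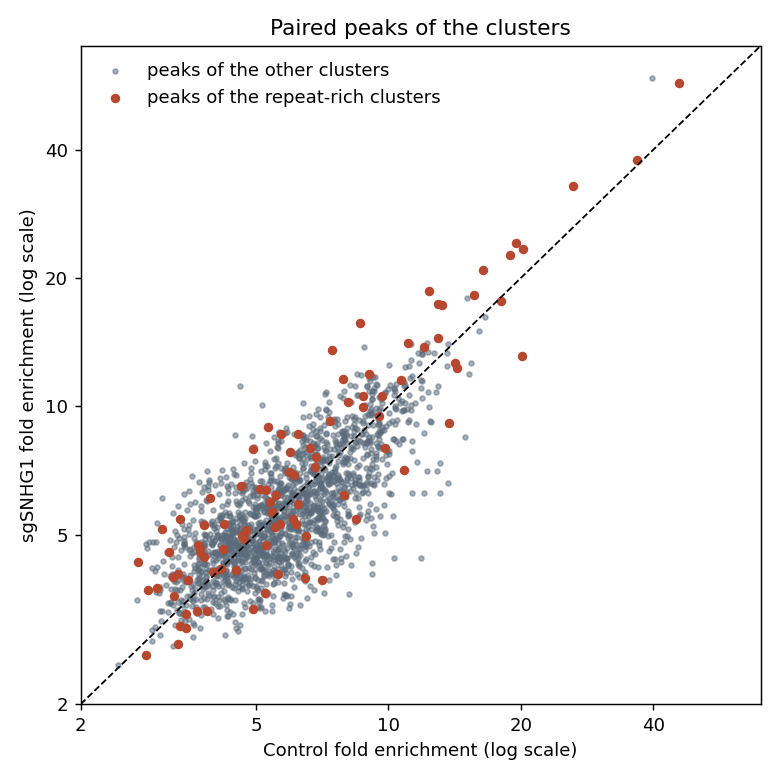
Fold enrichment in sgSNHG1 is plotted against fold enrichment in control for each paired peak of the clusters, both on log scales, with repeat-rich clusters in red and the line of equality dashed. Most points lie near the line, and those of 20 or more in either list belong to repeat-rich clusters, except 1 peak of the FRG2B cluster on chromosome 10, at 39.6 in control and 59.0 in sgSNHG1.

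Of 20 transcription factors of the adrenergic state, 6 had a TSS within 100 kb of a cluster, namely GATA2, HAND1, HEY1, KLF13, PHOX2A and TBX2. Over all protein-coding genes this held for 975 of 19962, or 4.88%. It held for 1 of 26 MES factors (FOSL2), 2 of 26 other neural crest and neuronal factors (BCL11A, LMO1), 3 of 13 catecholamine genes (CHGA and GCH1 among them), 1 of 12 receptor kinase genes (FGFR1) and 0 of 19 neurite genes. It held for 1 of 12 housekeeping genes and for 0 of 26 markers of T cells, B cells, myeloid cells, hepatocytes, keratinocytes and endothelium. The 5 neural lists together had 12 of 90 genes near a cluster, or 13.3%. These are counts, no set test was made, and the room around a gene that is free of other TSS, which the rule needs, was not matched.

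The nearest coding gene of 9 clusters was an ADRN gene, 7 genes in all. These clusters held 45 peaks, of which 32 were kept, or 71.1% (95% Wilson interval 56.6 to 82.3), an interval that holds the 61.5% of all cluster peaks and the 60.2% of all distal peaks. HAND1, a basic helix-loop-helix factor of the sympathetic lineage and the heart, had a cluster of 6 peaks at chromosome 5, 154505572 to 154528586, in no annotated gene and 27345 bp from its TSS. Control fold enrichments along the cluster were 11.2, 7.58, 5.27, 6.46, 3.03 and 5.33. The sgSNHG1 values were 11.6, 6.30, 3.61 and 4.69 for the first 4 peaks and 6.56 for the last, and the weakest control peak had none. The first and last peaks were higher in sgSNHG1 and the 3 between them lower, by 0.27 to 0.55 in log2 with counting errors of 0.32 to 0.39.

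ISL1 encodes a LIM homeodomain factor of sympathetic and motor neurons. Its cluster of 5 peaks lay 591447 bp from the TSS in a stretch without genes, at chromosome 5, 51974895 to 51998345. Control values were 4.37, 4.27, 6.18, 4.28 and 9.37, and the sgSNHG1 values of the last 4 were 4.35, 6.19, 4.10 and 9.91. The 4 pairs differed by at most 0.08 in log2, and the remaining peak, with a pileup of 13 fragments, was not kept.

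SOX11, an HMG-box factor of neuronal progenitors, was nearest to a pair of clusters on chromosome 2, at 5473691 to 5494505 and at 5520433 to 5541150. The first kept 3 of 4 peaks and the second 3 of 5. In the second cluster the control values were 8.77, 4.13, 4.44, 6.96 and 5.52. The sgSNHG1 list had 6.55 at the first, 5.01 at the third and 5.41 at the last peak. The fourth peak, with a control -log10 q of 21.1, had no sgSNHG1 peak. It lay at the lower end of the band from 20 to 40, in which 96.7% of cluster peaks were kept, against 80.4% in the band from 10 to 20.

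KLF13, a Krüppel-like zinc finger factor, held a pair of clusters inside the gene on chromosome 15. One had 4 peaks with 3 kept and lay 25623 bp from the TSS, the other had 5 peaks with 4 kept and lay 60895 bp away. Summed over its peaks, fold enrichment in the nearer cluster was 25.5 in control and 27.8 in sgSNHG1, and 25.2 and 21.6 in the farther one. The nearer cluster is thus among the 83 whose sum was higher in sgSNHG1, while 531 had a lower sum. The clusters were chosen on the control list, and a peak that was not called in sgSNHG1 adds nothing to its sum. A lower sum was therefore favoured by the rule, and these counts are not read as a loss of accessibility.

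PHOX2A encodes a homeodomain factor of noradrenergic neurons. The cluster nearest to it, 62631 bp away, lay inside CLPB, a mitochondrial chaperone gene, at chromosome 11, 72308295 to 72342929, and kept 4 of 8 peaks. The kept peaks had control values of 6.33, 6.91, 3.53 and 5.52 and sgSNHG1 values of 6.45, 9.87, 6.32 and 6.11. All 4 were higher in sgSNHG1, by 0.03, 0.51, 0.84 and 0.15 in log2 with counting errors of 0.28, 0.27, 0.43 and 0.37, so that none passed 2 counting errors. The 4 peaks without a counterpart had control values of 3.04 to 4.03.

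GATA2 and TBX2 had clusters within 100 kb although another gene was closer. GATA2, a zinc finger factor of sympathetic and blood cells, had a cluster of 7 peaks at a distance of 71070 bp, of which 4 were kept. TBX2, a T-box factor, had one of 6 peaks at 67749 bp, of which 2 were kept. The clusters of HEY1, a repressor downstream of Notch, and of EYA1, a transcriptional coactivator, each kept 3 of 4 peaks.

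Among other neural factors, LMO1 had the largest cluster. LMO1 is a LIM-only cofactor of transcription, and its cluster of 8 peaks at chromosome 11, 8225723 to 8264019, lay within the gene, 4697 bp from a TSS. Control values ran 4.63, 4.46, 3.82, 5.82, 5.19, 4.69, 3.64 and 3.88. Only the third, the fourth and the eighth peaks were kept, with 4.71, 6.37 and 4.27 in sgSNHG1. All 3 were higher there by less than their counting error. The second and the fifth peaks, with a control -log10 q of 11.2 and 13.0, were not kept. They lay in the lower part of the band from 10 to 20, in which 80.4% of cluster peaks were kept, against 47.6% in the band from 5 to 10.

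BCL11A, a zinc finger repressor of neurons and blood cells, kept 3 of 4 peaks and its summed fold enrichment went from 19.4 in control to 20.9 in sgSNHG1. MYT1L, a zinc finger factor of differentiated neurons, and TCF4, an E-protein partner of basic helix-loop-helix factors, each kept 2 of 4 peaks, with sums of 19.4 and 11.5 at MYT1L and 23.3 and 12.4 at TCF4. Since fold enrichments are summed over called peaks, a peak below the calling threshold counts as 0 in these sums.

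RET, the receptor tyrosine kinase for ligands of the GDNF family, had the largest cluster in which all peaks were kept. It lay on chromosome 10 at 42926787 to 42975779, in no annotated gene and 101285 bp from the RET TSS, and all 8 peaks overlapped an sgSNHG1 peak. Control values were 7.62, 5.05, 3.58, 8.55, 5.51, 9.10, 7.52 and 5.50. The sgSNHG1 values were 5.39, 4.65, 8.32, 6.30, 10.1, 7.02 and 4.53, the third control peak sharing its overlapping peak with the fourth. Of the 7 pairs 2 were higher and 5 lower, and the largest difference was -0.50 in log2 with a counting error of 0.48.

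The clusters of other receptor genes kept fewer peaks. NTRK2, the receptor of brain-derived neurotrophic factor, kept 2 of 4 peaks in a cluster inside the gene. FGFR1 kept 1 of 4 peaks, the weakest of them, which went from 3.40 in control to 5.29 in sgSNHG1, which is 0.64 in log2 (counting error 0.38).

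Of the catecholamine genes, GCH1 encodes the first enzyme in the synthesis of the cofactor of tyrosine hydroxylase, and CHGA a protein of secretory granules. GCH1 was nearest to a pair of clusters on chromosome 14. In the farther one, inside SAMD4A at 54773221 to 54785449, 1 of 4 peaks was kept and went from 7.55 to 4.38, which is -0.78 in log2 (counting error 0.45). In the nearer one, at 54805778 to 54819042, 3 of 4 peaks were kept, with 5.27, 4.79 and 9.29 in control and 5.40, 4.63 and 10.9 in sgSNHG1. The CHGA cluster, inside the neighbouring gene ITPK1, kept 2 of 4 peaks, with 5.25 and 7.98 in control and 5.78 and 4.96 in sgSNHG1.

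Among neurite genes, GAP43, a growth cone protein, had a cluster of 4 peaks 217663 bp from its TSS in which all 4 were kept. Control values were 5.68, 7.90, 9.28 and 6.09 and sgSNHG1 values 4.53, 7.39, 6.81 and 3.77, so that all 4 were lower by 0.09 to 0.69 in log2 with counting errors of 0.35 to 0.48. NCAM1, a cell adhesion molecule of neurons, kept 2 of 5 peaks, and its strongest control peak, with 7.79, had no counterpart. ROBO1, a receptor for SLIT guidance cues, kept 3 of 4 peaks. The clusters next to 3 MES genes held 15 peaks, of which 9 were kept. TWIST1, a basic helix-loop-helix factor of mesenchymal cells, had 5 of 7 kept, in a cluster inside HDAC9, and its strongest site had 11.8 in control and 11.5 in sgSNHG1. FOSL2, an AP-1 subunit, and SOX9, an HMG-box factor of neural crest and cartilage, each kept 2 of 4.

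Outside the repeat-rich clusters, the largest clusters held 10 to 12 peaks. PRKCE, which encodes protein kinase C epsilon, and AGAP1, a GTPase-activating protein of membrane traffic, each had 12 peaks inside the gene with 5 kept. TSPAN18, a tetraspanin, had 11 peaks with 10 kept, and SPSB4, a substrate adaptor of a ubiquitin ligase, 11 with 9 kept. In the TSPAN18 cluster the 10 kept peaks had control values of 3.52 to 8.10 and sgSNHG1 values of 4.15 to 8.75, 6 of them higher in sgSNHG1 and 4 lower. The 8 clusters of 10 peaks kept 55 of 80, and the 3 with the longest spans are named. HHAT, the acyltransferase of Hedgehog proteins, kept 4 of 10 peaks, CDC42EP3, an effector of the small GTPase CDC42, 7 of 10, and OTULINL 7 of 10 in a cluster inside TRIO, which encodes a guanine nucleotide exchange factor. In the PRKCE cluster the 5 kept peaks had control pileups of 22 to 56 fragments and the 7 others 19 to 29.

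**Figure D5:**
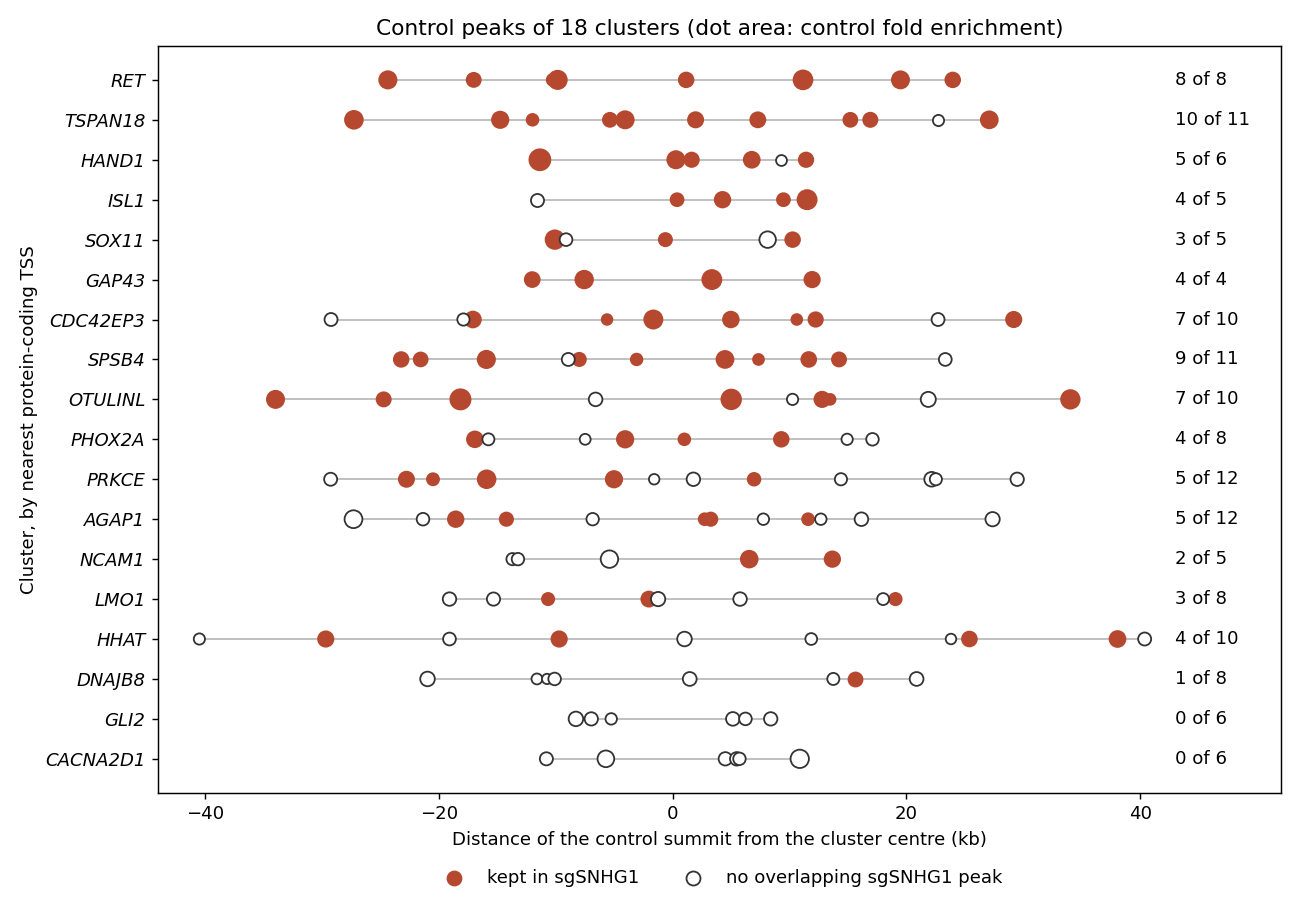
Each row is a cluster named by its nearest coding gene. Dots are control summits at their distance in kb from the cluster centre, with an area proportional to the control fold enrichment, filled red where an sgSNHG1 peak overlapped and open where none did, and the number kept is at the right. RET kept 8 of 8 peaks and GLI2 and CACNA2D1 kept 0 of 6, while most rows mix kept and lost peaks along their length.

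The extremes among the 119 clusters of 6 or more peaks went from 0 to all peaks. After RET, the highest were CAPN2, a calpain protease, with 7 of 7 kept, and HS6ST1, a heparan sulfate sulfotransferase, STRA6, the retinol transporter, and RYBP, a Polycomb component, each with 6 of 6. The lowest were GLI2, a transcription factor of Hedgehog signalling, and CACNA2D1, an auxiliary subunit of calcium channels, with 0 of 6. DNAJB8 had 1 of 8 in a cluster inside EEFSEC, and NPAS2, a clock factor, and SH3BP2, an adaptor protein, had 1 of 6 each. SH3BP2 lies on chromosome 4, where 39.95% of all distal control peaks and 52.5% of the cluster peaks were kept. These clusters were picked for their shares, which are a description.

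The strongest control sites of clusters that lost theirs are shown for comparison, with the same motifs in capitals.
GLI2 (chr2:120901384-120901484): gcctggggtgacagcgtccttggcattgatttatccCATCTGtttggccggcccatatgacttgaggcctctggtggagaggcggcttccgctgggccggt
CACNA2D1 (chr7:82435926-82436026): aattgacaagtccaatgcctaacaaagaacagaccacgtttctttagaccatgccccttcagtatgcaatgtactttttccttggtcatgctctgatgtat
NCAM1 (chr11:113119255-113119355): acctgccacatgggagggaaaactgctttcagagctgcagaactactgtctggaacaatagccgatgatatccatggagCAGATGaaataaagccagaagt

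Control fold enrichments in the GLI2 cluster were 5.40, 4.52, 3.36, 4.74, 4.09 and 4.58, with pileups of 21 to 32 fragments, and 1 sgSNHG1 peak lay in the span without touching a control peak. In the CACNA2D1 cluster they were 4.37, 7.12, 4.56, 4.62, 3.99 and 8.60, with pileups of 13 to 27, and the span held no sgSNHG1 peak. The sixth CACNA2D1 peak had a -log10 q of 17.5, in a range where 80.4% of cluster peaks were kept. The RET cluster had pileups of 17 to 69 fragments, which overlap both ranges.

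Clusters were spread unevenly over the genome. Chromosome 11 had 4.22 clusters per 10 Mb, chromosome 8 had 3.72, chromosome 2 had 3.43 and chromosome 1 had 3.13. The lowest were chromosome 18 with 0.124, chromosome 13 with 0.175 and chromosome X with 0.256. These 3 also had few distal peaks, 3.17, 3.59 and 2.76 per Mb, against 15.4 per Mb on chromosome 11 and 15.9 on chromosome 8. The local background of distal peaks, relative to the genome-wide background, was 1.75 on chromosome 11 and 1.69 on chromosome 8. It was 1.01 on chromosome 13 and 1 on chromosomes 18 and X. Chromosome 17 had the highest, 1.94, with 2.52 clusters per 10 Mb. Whether copy number or read depth set the number of clusters was not tested. The windows of 10 Mb with the most clusters had 10 each, at 200 to 210 Mb of chromosome 1, at 230 to 240 Mb of chromosome 2 and at 70 to 80 Mb of chromosome 11. The coding genes nearest to the most clusters were CWH43, RPIA and SCHIP1, with 4 each. The clusters of CWH43 and RPIA lay beside the centromeres of chromosomes 4 and 2, and 2 of the 4 were repeat-rich at each. SCHIP1, which encodes a partner of the tumour suppressor merlin, had 4 clusters between 159586524 and 159903411 of chromosome 3, of which 13 of 18 peaks were kept.

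Chromosome 4 had the lowest share of all distal control peaks kept, 39.95%, and the next lowest was 50.6% on chromosome 18. The 32 clusters of chromosome 4 kept 84 of 160 peaks, or 52.5% (95% Wilson interval 44.8 to 60.1), which was not the lowest among clusters. Chromosome 18, with 1 cluster, had 50% and chromosome 22, with 9 clusters, had 51.1%. Chromosomes 20, 21 and X were slightly above chromosome 4, with 52.6%, 52.9% and 52.6%. The median log2 ratio of scaled pileups in cluster pairs was -0.36 on chromosome 4, against -0.04 over all cluster pairs and -0.46 on chromosome 13, which had 2 clusters, and the median log2 ratio of fold enrichment, which divides by the local background, was -0.10 on chromosome 4. On chromosome X the 10 pairs had medians of 0.74 and 0.17. Without chromosomes 4, 9 and X the share of cluster peaks kept was 62.3%.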

How the data were processed

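ATAC-seq was made from 4 samples of SK-N-BE(2)C cells, 2 control and 2 sgSNHG1. The authors trimmed reads with cutadapt, aligned them to GRCh38 with BWA, marked duplicates with GATK and Picard, removed duplicate, improperly paired, multiply mapped, mitochondrial and blacklisted reads, shifted read ends to the transposase cut with deepTools, combined replicates and called peaks with MACS2. Versions and the calling threshold are not given in the sources used here. The smallest -log10 q was 2.00 in control and 2.01 in sgSNHG1.

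In the deposited lists, the score is the -log10 q times 10 as a whole number, the fold enrichment is the ratio, with a pseudocount, of summit pileup to local background within a list, and the deposited -log10 p and -log10 q rest on a Poisson model of the pileup. The peaks were combined from replicates, so that reads per sample were not used.

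Genes came from GENCODE version 44 on GRCh38, and sequences from the GRCh38 assembly. Distal peaks were more than 3 kb from every gene TSS. Peaks with an overlap of at least 1 bp were called kept, and mutual best overlaps were paired. Pileup and local background were solved from fold enrichment and -log10 p. The joining and the solution were tested on simulated data. Shares have 95% Wilson intervals, and differences Newcombe intervals. Python 3.11.15, numpy 2.4.6, pandas 2.3.3, scipy 1.17.1 and pysam 0.24.0 were used.

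The text names the 10 clusters with the most peaks (ties by longer span), the clusters nearest to a gene of the neural and MES lists, with values for up to 4 with the most peaks per list, the 5 with the highest and the 5 with the lowest share kept among those of 6 or more peaks, and the 3 genes with the most clusters. Values of further ADRN clusters (SOX11, KLF13, HEY1, EYA1, GATA2, TBX2) and of the FRG2B peak go beyond this rule. The members, gene lists and tests were chosen with earlier results of these data known. No test between groups was made, since each group has 1 list. Some genes of the lists are not reported here by name. Other gaps, peak numbers, TSS sets, thresholds and overlaps were tried.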

Additional observations from a re-analysis of the deposited data

How the results depend on the processing

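The number of clusters depended on the rule more than the share of their peaks kept did. The 614 clusters became 89 with a gap of at most 5 kb, 1427 with 25 kb, 1682 with 3 or more peaks, 252 with 5 or more peaks and 329 with control peaks of -log10 q of at least 5. The share kept of 61.5% became 67.3% with a gap of at most 5 kb, 44.4% where the overlap had to cover 50% or more of each peak, 56.3% with the control summit inside an sgSNHG1 peak, 87.5% for control peaks of -log10 q of at least 10, and 78.0% for clusters built from the sgSNHG1 list. The corresponding shares of other distal peaks were 59.9%, 42.1%, 53.8%, 87.5% and 71.0%. The median log2 ratio of -0.03 turned to 0.038 for pairs in which both peaks had a -log10 q of 10 or more, where it was 0.01 for other distal pairs. The cause was not tested. The neural lists had 7 genes within 50 kb and 21 within 250 kb of a cluster, against 12 within 100 kb. Within 50 bp of the summit, a narrower window by construction, motif shares were 3.19% for AP-1, 18.9% for GATA, 17.9% for CATCTG, 12.7% for CAGCTG, 0.829% for TEAD and 0.796% for CTCF. The other 28 values kept their direction and stayed within the counting interval, or for counts within 1.5 times the reported number. Among these 28, the TSS of every transcript in place of that of the gene record gave 425 clusters with 2043 peaks, of which 61.8% were kept. Leaving out the 12 repeat-rich clusters was chosen after seeing the data. No paired analysis was possible because the replicates of a group had been combined. With a median pileup of 27 fragments, a single pair could not show log2 changes much below 0.8.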

Other observations

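Clusters built by the same rule from the sgSNHG1 list gave further values at CHGA, KIF26B and UNC5C, chosen after their values were seen. Beside the control cluster of CHGA on chromosome 14, the sgSNHG1 list had a cluster of 6 peaks at 92973226 to 92997765, 50076 bp from the CHGA TSS. Of its peaks 5 overlapped a control peak, but the span held only 3 distal control peaks, so that it did not meet the rule in control. KIF26B, which encodes a kinesin family protein of chromosome 1, had 3 control clusters with 16 peaks, of which 12 were kept, and 3 sgSNHG1 clusters, among them one of 5 peaks at 245292648 to 245312165 where control had 3. UNC5C, a receptor for netrin guidance cues on chromosome 4, had 3 control clusters with 15 peaks, of which 5 were kept, and 1 sgSNHG1 cluster of 4 peaks, of which 3 overlapped a control peak. On chromosome 4, 39.95% of all distal control peaks and 52.5% of the cluster peaks were kept, so that the low number is not read as a trait of UNC5C.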
